A study of Mus musculus with 7 samples.

Results

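Glycogen is the branched glucose store of the heart, and RNA-seq counts of 9 genes that build it or break it down were compared between sorted mouse cardiomyocytes of 2 ages. There were 4 libraries from day 6 after birth (P6) and 3 from day 30 (P30). The 9 genes were picked by symbol, for their known role in making or breaking down glycogen. They are Ugp2, Gyg, Gys1, Gbe1, Ppp1r3c, Phka1, Pygm, Pygb and Pygl. All 9 were present among the 23337 genes of the deposited count table, and all 9 passed the low-count filter that left 12561 genes for testing.

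Both ages share the genotype label and the virus. Every sample is labelled Rosa-Tom/Cas9, and the series design speaks of Rosa-Tom or Rosa-Cas9 mice without saying which allele a given mouse had. Whether the allele differed between the ages is therefore not known, and such a difference could not be told apart from age. All pups received AAV9-cTNT-Cre, an adeno-associated virus whose cardiac troponin T promoter drives Cre, on postnatal day 1, so older hearts had also carried the virus for longer, and these effects cannot be told apart. Cells came from collagenase-perfused hearts and were sorted by fluorescence. The treatment text of the labels puts collection at day 14, while the titles, the stated ages and the design give day 6 or day 30, which were used. Whether each library is a different animal is not stated in the labels. The p-values therefore rest on the variation among the 7 libraries alone, part of which may be technical.

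In muscle cells glucose reaches glycogen as UDP-glucose, which UDP-glucose pyrophosphorylase makes. Glycogenin primes the chain, glycogen synthase lengthens it and the branching enzyme adds side branches. Glycogen phosphorylase releases glucose 1-phosphate from chain ends. Phosphorylase kinase switches phosphorylase on, and protein phosphatase 1, held on the particle by targeting subunits, dephosphorylates both synthase and phosphorylase. The heart uses both the muscle and the brain isoform of phosphorylase.

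Of the 9 genes, 6 were higher and 1 was lower at P30, and 2 did not pass the test (quasi-likelihood F-test of edgeR, with p adjusted over all tested genes by Benjamini-Hochberg and a threshold of 0.05). Over all tested genes 26.3% were called higher, 27.8% lower and 54.1% in either direction. The median log2 fold change of the 9 was 0.44, against -0.02 for all tested genes. Levels are in CPM (counts scaled to a common library total with TMM factors) and are given as mean ± SD over the 4 P6 or 3 P30 libraries and log2 fold changes as estimate ± SE. The largest rise among the 9 was that of Ppp1r3c, a targeting subunit of protein phosphatase 1, at 3.93-fold. Pygm, the muscle phosphorylase, was 2.11-fold higher, Pygb, the brain phosphorylase, 1.65-fold and Gys1, the muscle glycogen synthase, 1.62-fold. Pygl, the liver phosphorylase, was 3.96-fold lower. CPM did not overlap between the ages in 7 of the 9 genes, and the same held for 56.6% of all tested genes.

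**Figure D1:**
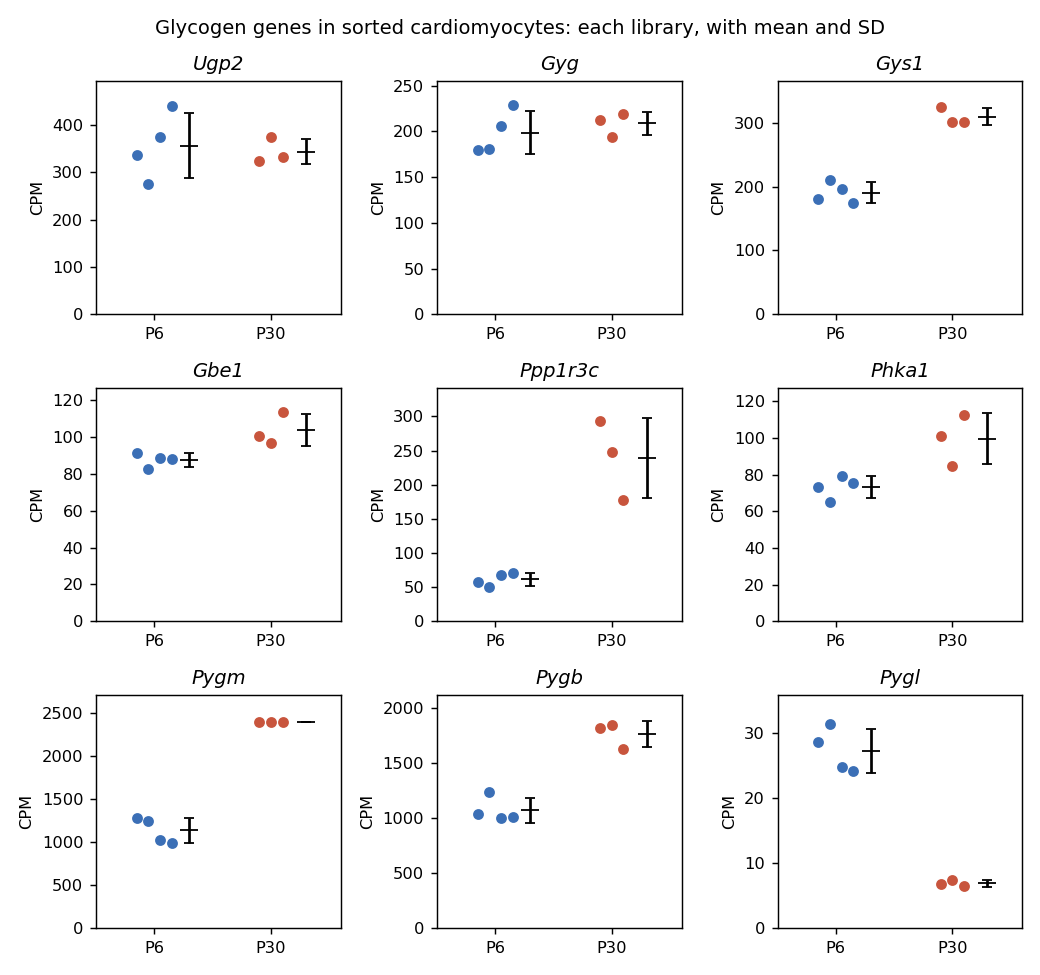
Normalised read counts (CPM, linear axes from 0) of the 9 glycogen genes in each of 4 P6 libraries (blue) and 3 P30 libraries (red), in the order a to d and a to c; the black bar beside each group is its mean with SD. Ppp1r3c, Pygm, Pygb and Gys1 lie higher in every P30 library and Pygl lower, while the ages overlap for Ugp2 and Gyg.

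The genes lie on 8 chromosomes of GRCm38 and all are protein-coding in GENCODE. Gys1 spans chr7:45434844-45456619 (plus strand), Gyg chr3:20122084-20155317 (minus), Gbe1 chr16:70313949-70569716 (plus), Ugp2 chr11:21321138-21371201 (minus) and Phka1 chrX:102513975-102644246 (minus). Ppp1r3c at chr19:36731731-36736653 (minus) has only 2 exons, and Pygm lies on the same chromosome at chr19:6384399-6398459 (plus). Pygb is at chr2:150786735-150831758 (plus) and Pygl at chr12:70190811-70231488 (minus), and the longest coding transcript has 20 exons in each of the 3 phosphorylase genes. Exons of Gys1 overlap those of Ruvbl2 on the other strand over 310 bases, or 6.47% of its exonic bases. For Ugp2 the overlap, with the transcript Gm12043, was 2.54%. The strand setting of the authors' counting is not given, so reads from these stretches cannot be told apart; the other 7 genes shared no exonic base with another gene.

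Sequences upstream of 3 genes that rose are shown because they belong to the opposing arms of the pathway: the synthase, the main muscle phosphorylase and the phosphatase subunit with the largest rise. They come from RefSeq (GRCm38.p6), run 5′ to 3′ on the gene's strand, and stop before the first base that RefSeq or GENCODE counts as transcribed. Capitals mark letters of the motifs searched on both strands.
Gys1, chr7:45434589-45434838, plus strand: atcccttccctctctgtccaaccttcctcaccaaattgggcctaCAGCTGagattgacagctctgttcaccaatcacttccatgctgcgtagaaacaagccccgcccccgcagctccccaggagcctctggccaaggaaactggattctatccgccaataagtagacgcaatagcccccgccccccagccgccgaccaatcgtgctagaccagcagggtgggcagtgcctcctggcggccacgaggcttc
Pygm, chr19:6384158-6384398, plus strand: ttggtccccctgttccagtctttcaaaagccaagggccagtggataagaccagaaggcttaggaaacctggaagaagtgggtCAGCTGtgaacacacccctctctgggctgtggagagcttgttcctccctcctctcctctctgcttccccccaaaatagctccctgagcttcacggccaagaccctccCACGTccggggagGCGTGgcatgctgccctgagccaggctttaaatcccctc
Ppp1r3c, chr19:36736654-36736854, minus strand: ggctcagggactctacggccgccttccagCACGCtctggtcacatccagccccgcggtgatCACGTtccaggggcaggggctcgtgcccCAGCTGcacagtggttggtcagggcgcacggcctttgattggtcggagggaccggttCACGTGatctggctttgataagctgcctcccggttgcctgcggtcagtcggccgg

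The motifs were the hypoxia response core (ACGTG or GCGTG), the E-box CACGTG, which contains ACGTG on each strand, the muscle E-box CAGCTG and the nuclear receptor half-site AAGGTCA. In the 250 bases before each RefSeq start, all 9 genes had an entry and Ugp2 had a pair of them, giving 10 promoters. By GENCODE coordinates, the windows of Pygl and of 1 promoter of Ugp2 lie within the gene, and that of Gyg lies mostly within it. Those of Pygb, Pygm and Ppp1r3c reach into the gene by a short stretch. Such bases were kept in the counts that follow. The hypoxia response core was in 7 of these 10 and in 38.6% of 32851 promoters of all genes. CAGCTG was in 5 of the 10 and in 13% of all promoters. CACGTG was found in 1, that of Ppp1r3c, where it begins 104 bases before the start, and in 6.02% of all promoters. AAGGTCA was in 0 of the 10 and in 4.08% of all. Of the 3 genes shown, each held CAGCTG: 206 bases before the start in Gys1, 168 and 8 in Pygm (the latter past the end of the stretch printed) and 161 in Ppp1r3c. Phka1, also called higher, held CAGCTG too, as did 1 promoter of Ugp2, which did not pass the test. Gbe1 and Pygb, both called higher, held no CAGCTG in this window. Gys1 and Gbe1, both among the genes that rose, held no hypoxia response core in this window, whereas Ugp2, which did not pass the test, held 6 matches in 1 of its promoters. The core was also held by Pygb, Pygm, Ppp1r3c and Phka1, called higher, by Pygl, called lower, and by Gyg, not called. These are matches of letters, and binding was not measured.

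The depth was 10594932 to 51427646 counts per library, and 3 counts corresponded to 0.0553 to 0.271 CPM. The 9 genes had between 91 counts (Pygl in P30c) and 55537 counts (Pygm in P6c), all far above that floor. Markers of cardiomyocytes were abundant at both ages, with a summed level of 63263 to 75604 CPM at P6 and 94252 to 96988 CPM at P30 over 8 genes. Of these 8, 4 were called higher and 0 lower, with a median log2 fold change of 0.17, and Myh6 alone went from 33636 ± 5693 to 57300 ± 2252 CPM. Markers of other cell types moved with age: 6 of 8 endothelial genes rose (summed level 83.5 to 155 CPM at P6, 254 to 519 CPM at P30), and 5 of 5 tested leukocyte genes (1.95 to 4.56 and 11.1 to 33.3 CPM). Of 8 smooth muscle and pericyte genes 5 rose and 1 fell (417 to 583 and 530 to 620 CPM). Most of that sum was Abcc9, which was not called, at 410 ± 87.2 CPM at P6 and 423 ± 33.2 CPM at P30. Pdgfrb, the highest of the 5 that rose, went from 12.8 ± 2.69 to 37.5 ± 11.6 CPM. Of 7 tested fibroblast genes 1 fell (158 to 391 and 137 to 313 CPM). Hba-a1, an erythroid marker, was at 0 in every library, and 7 of 8 immediate early genes, which respond to cell dissociation, rose (240 to 315 and 1120 to 2114 CPM). The part of these genes in the results below was not tested, and fewer cells of a type cannot be told apart from less RNA per cell.

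The enzymes that supply and prime the chain did not pass the test. Ugp2, which makes UDP-glucose, had 336, 277, 375 and 440 CPM in P6a to P6d and 325, 375 and 333 CPM in P30a to P30c. The P30 values lie inside the range of the P6 values, and the log2 fold change was -0.05 ± 0.14 (SE), with a 95% interval of -0.37 to 0.27 (edgeR adjusted p = 0.776). Gyg, which encodes glycogenin, had 180, 181, 206 and 229 CPM at P6 and 213, 194 and 219 CPM at P30. Here too the ages overlap, with a log2 fold change of 0.07 ± 0.11 and a 95% interval of -0.16 to 0.31 (edgeR adjusted p = 0.590).

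Gys1, the synthase that lengthens the chain, rose. Its levels were 180, 210, 196 and 175 CPM at P6 and 325, 301 and 302 CPM at P30, so every P30 library lay above every P6 library. The mean was 190 ± 16.1 CPM at P6 (n = 4) and 309 ± 13.3 CPM at P30 (n = 3). The log2 fold change was 0.70 ± 0.09 (edgeR adjusted p = 0.00016). Gys2, the liver synthase, was nearly absent, with at most 0.223 CPM in any library, and was not tested. Against Gyg, Gys1 shifted upwards without overlap: the log2 ratio of Gys1 to Gyg counts within a library, which needs no scaling and was not tested, was between -0.39 and 0.22 at P6 and between 0.46 and 0.63 at P30.

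Gbe1, the branching enzyme, showed a small rise. It had 91.5, 82.5, 88.6 and 88.0 CPM at P6 and 101, 96.8 and 114 CPM at P30. The groups do not overlap, but the gap between P6a and P30b is narrow; the log2 fold change was 0.24 ± 0.09 with a 95% interval of 0.05 to 0.44 (edgeR adjusted p = 0.0395). This call was lost when any of P6a, P6b, P6c, P6d, P30a and P30c was left out (edgeR adjusted p = 0.0521 to 0.17), with no low-count filter (0.0785) and with library totals, where the log2 fold change was 0.06 (edgeR adjusted p = 0.533).

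Among the phosphorylases, which release glucose 1-phosphate, the 2 abundant isoforms rose and the scarce one fell. Pygm had 1273, 1244, 1024 and 991 CPM in P6a to P6d and 2389, 2392 and 2389 CPM in P30a to P30c. P6a and P6b were above P6c and P6d, the P30 libraries were nearly level, and the ages did not overlap. The mean rose from 1133 ± 146 to 2390 ± 1.85 CPM, a log2 fold change of 1.077 ± 0.104 (edgeR adjusted p = 3.2e-05).

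Pygb had 1032, 1237, 998 and 1007 CPM at P6 and 1818, 1842 and 1628 CPM at P30. P6b stood above the other P6 libraries but below all P30 libraries. The mean rose from 1069 ± 113 to 1763 ± 117 CPM, a log2 fold change of 0.72 ± 0.10 (edgeR adjusted p = 0.00024).

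Pygl went the other way, from 28.6, 31.3, 24.7 and 24.1 CPM at P6 to 6.81, 7.37 and 6.38 CPM at P30. The groups were far apart relative to their spread (27.2 ± 3.43 and 6.85 ± 0.494 CPM), and the log2 fold change was -1.99 ± 0.15 (edgeR adjusted p = 7.1e-06). Pygl is the isoform of liver and of many other cells.

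Shares of raw counts within an isoform family do not depend on library scaling, and 7 such shares were tested by an exact two-sided permutation test over the 35 ways to divide 7 libraries into 4 and 3. The smallest p this design allows is 0.0286, which became 0.05 after Benjamini-Hochberg adjustment over the 7 shares, so no share came under the threshold of 0.05. Pygm made up 54.6, 49.5, 50.04 and 49.0% of the 3 phosphorylases at P6 and 56.7, 56.4 and 59.4% at P30. Its mean share was 50.8% ± 2.55 (SD, n = 4) and 57.5% ± 1.64 (SD, n = 3), a difference of 6.72 percentage points (exact permutation p = 0.0571, adjusted 0.0667). The share of Pygb was 48.0% ± 2.56 and 42.3% ± 1.64, with the same p-values. The groups did not overlap for either isoform, though P6a lay close to the P30 libraries in both. Pygl held 1.22% ± 0.0246 of phosphorylase counts at P6 and 0.165% ± 0.00799 at P30 (exact permutation p = 0.0286, adjusted 0.05).

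**Figure D2:**
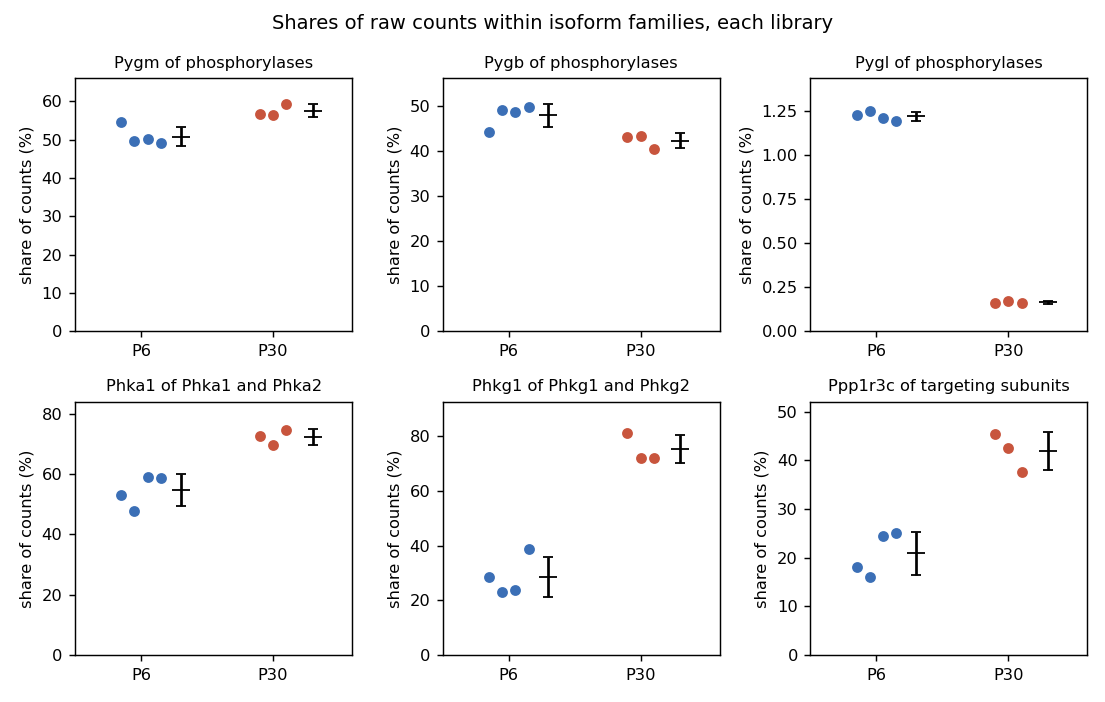
Shares of raw counts (percent, linear axes from 0) within isoform families in each P6 (blue) and P30 (red) library, with the mean and SD of each group in black. Pygl holds 1.22% of the phosphorylase counts at P6 and 0.165% at P30, and the points of Phka1, Phkg1 and Ppp1r3c lie higher in every P30 library, though no share passed the adjusted threshold.

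Phka1, the muscle form of the alpha subunit of phosphorylase kinase, rose modestly. It had 73.1, 65.2, 79.5 and 75.3 CPM at P6 and 101, 84.9 and 113 CPM at P30, with P30b nearest to the P6 range. The log2 fold change was 0.44 ± 0.11 (edgeR adjusted p = 0.00879). The call was lost with library totals (log2 fold change 0.26, edgeR adjusted p = 0.0575) and with a transcript-length trend removed (0.30, edgeR adjusted p = 0.0761).

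The other subunits of phosphorylase kinase differed in direction. Phka2, the liver alpha subunit, fell from 61.2 ± 8.54 to 38.0 ± 0.516 CPM (log2 fold change -0.69 ± 0.12, edgeR adjusted p = 0.00101). Phka1 held 54.5% ± 5.34 of the counts of both at P6 and 72.2% ± 2.62 at P30 (exact permutation p = 0.0286, adjusted 0.05). The Phka1 transcript is the longer, and with counts divided by transcript length its share was 46.1% ± 5.31 at P6 and 64.8% ± 2.97 at P30. Which form was the larger at P6 therefore depends on this choice. Phkg1, the muscle form of the catalytic gamma subunit, had the largest fold rise among the 40 tested genes of both lists, from 3.26, 3.13, 2.84 and 4.47 CPM at P6 to 29.3, 22.2 and 23.9 CPM at P30. Every P30 library was several times above every P6 library, and the fitted change was 7.51-fold (edgeR adjusted p = 3.2e-06), though 9.68% of its exonic bases overlap Sumf2 on the other strand. Phkg2, the more widely expressed gamma subunit, had 8.72 ± 1.45 and 8.18 ± 1.23 CPM, and 21.9% of its exonic bases overlap Ccdc189 on the other strand. With both overlaps included, Phkg1 held 28.5% ± 7.24 of the pair at P6 and 75.2% ± 5.13 at P30 (exact permutation p = 0.0286, adjusted 0.05). Phkb, the beta subunit, was called higher, at 88.2 ± 10.5 and 107 ± 5.79 CPM (log2 fold change 0.28 ± 0.11, edgeR adjusted p = 0.0466), but its groups overlap. The Phkb call was lost when any of P6b, P6c, P6d, P30a, P30b and P30c was left out (edgeR adjusted p up to 0.148), with library totals (0.451), with no low-count filter (0.0601) and with the length trend removed (0.154).

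Ppp1r3c, which encodes the targeting subunit also called PTG, showed the largest change among the 9 genes together with Pygl. It had 57.2, 49.4, 67.5 and 70.3 CPM in P6a to P6d and 294, 248 and 177 CPM in P30a to P30c. The P30 libraries differed among themselves, P30a holding the most and P30c the least, yet all were well above the P6 libraries. The mean rose from 61.1 ± 9.63 to 240 ± 58.7 CPM, a log2 fold change of 1.97 ± 0.18 (edgeR adjusted p = 2.1e-05). The log2 ratio of Ppp1r3c to Gys1 counts within a library was -2.09 to -1.31 at P6 and -0.77 to -0.14 at P30.

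Other subunits of protein phosphatase 1 did not move as one. Ppp1r3a, the striated muscle targeting subunit, rose from 98.7 ± 9.77 to 188 ± 18.8 CPM (log2 fold change 0.93 ± 0.10, edgeR adjusted p = 8.1e-05). Ppp1r3d and Ppp1r3g, a pair of further targeting subunits, fell, by 0.36 ± 0.09 and 2.43 ± 0.38 on the log2 scale (edgeR adjusted p = 0.00832 and 0.00056), Ppp1r3g to 0.495 ± 0.173 CPM, which rests on 5 to 12 counts per P30 library. Ppp1r3b, the targeting subunit known from liver, had 78.7 ± 15.9 and 94.6 ± 13.9 CPM and did not pass (edgeR adjusted p = 0.194). Ppp1r3c held 20.9% ± 4.45 of all targeting subunit counts at P6 and 41.8% ± 3.88 at P30 (exact permutation p = 0.0286, adjusted 0.05). With counts divided by transcript length its share was 31.2% ± 5.70 and 58.2% ± 3.92. The catalytic subunits Ppp1ca and Ppp1cb fell, from 507 ± 23.6 to 383 ± 5.74 CPM and from 652 ± 83.2 to 417 ± 32.6 CPM (edgeR adjusted p = 0.0016 and 0.00122), with 16.5% and 17.5% of their exonic bases shared with other genes.

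Beyond the 9 genes, a list of 33 further glycogen genes was counted, of which 31 were tested: 11 were higher, 8 lower and 12 not called, with a median log2 fold change of 0.20. Besides Gys2, Ppp1r3e did not pass the low-count filter. Against the background of 26.3% higher and 27.8% lower, the list held 11 and 8 of 31. Scaled by library totals alone, the list gave 8 higher and 10 lower. That scaling moved the median of all tested genes from -0.02 to -0.20 and the counts over all genes from 3307 higher and 3490 lower to 2408 and 4658.

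**Figure D3:**
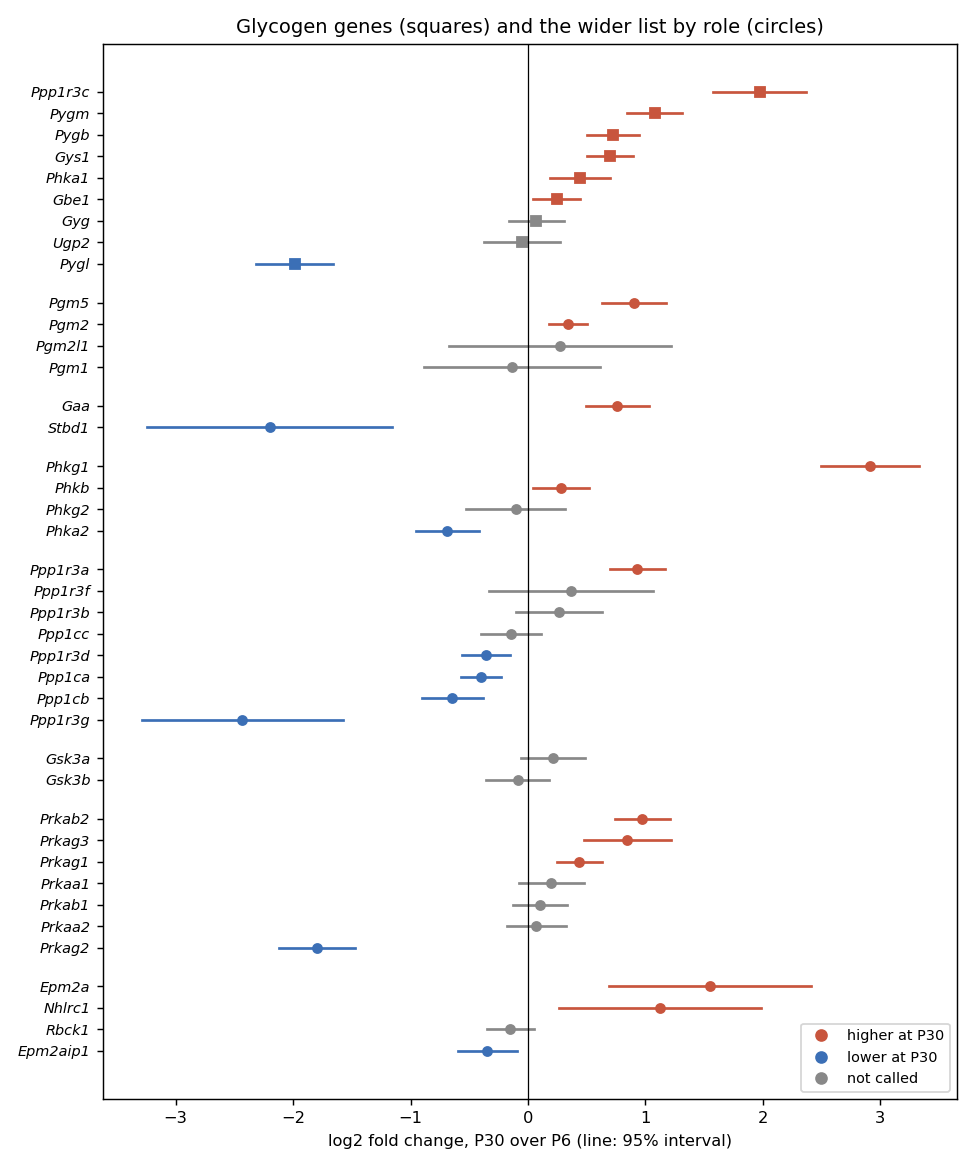
Log2 fold change (P30 over P6) with its 95% interval for the 9 glycogen genes (squares, top) and the 31 tested genes of the further list (circles), grouped by role; red was called higher, blue lower and grey not called. Phkg1 and Ppp1r3c lie far to the right, and Ppp1r3g, Stbd1, Pygl and Prkag2 far to the left.

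The AMP-activated kinase binds glycogen through its beta subunits and senses AMP through its gamma subunits, and its subunit genes split by isoform. Prkag2, the gamma subunit whose mutations cause a glycogen storage cardiomyopathy, had 131, 120, 145 and 159 CPM at P6 and 43.0, 44.7 and 32.1 CPM at P30. All P30 libraries were below all P6 libraries, with a log2 fold change of -1.80 ± 0.14 (edgeR adjusted p = 1.2e-05), and 14.5% of its exonic bases overlap antisense transcripts. The other gamma subunits rose: Prkag1 from 99.9 ± 7.42 to 135 ± 2.06 CPM (edgeR adjusted p = 0.00205), with 43.7% of its exonic bases shared with an antisense gene, and Prkag3 from 6.84 ± 1.05 to 12.3 ± 0.988 CPM (0.00197). Prkab2, the beta subunit of muscle, rose from 47.4 ± 4.46 to 93.1 ± 8.79 CPM (edgeR adjusted p = 6.3e-05). The catalytic subunit Prkaa2 had 290 ± 12.3 and 305 ± 50.3 CPM and did not pass (log2 fold change 0.07, 95% interval -0.18 to 0.32). Neither glycogen synthase kinase gene, Gsk3a or Gsk3b, was called.

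Genes of lysosomal breakdown went in opposite directions. Gaa, the acid alpha-glucosidase that is deficient in Pompe disease, rose from 206 ± 30.5 to 349 ± 29.7 CPM (log2 fold change 0.76 ± 0.12, edgeR adjusted p = 0.00054). Stbd1, which tethers glycogen to membranes, fell from 80.7, 78.1, 192 and 180 CPM in P6a to P6d to 37.5, 37.6 and 11.5 CPM in P30a to P30c. P6a and P6b formed a low pair and P6c and P6d a high pair, a split that was not particular to this gene. P30c lay below the other P30 libraries, and the log2 fold change was -2.20 ± 0.46 (edgeR adjusted p = 0.00307).

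Of the quality control genes, Epm2a, which encodes laforin, a phosphatase acting on glycogen, rose from 1.35 ± 0.658 to 4.11 ± 0.103 CPM (edgeR adjusted p = 0.00715). Epm2a had only 5 (P6d) to 103 (P6c) counts per P6 library. Without P6d its log2 fold change was 1.29 (edgeR adjusted p = 0.00371), against 1.55 with all libraries. Its partner Nhlrc1, the ubiquitin ligase malin, was higher, at 8.37 ± 4.39 and 18.3 ± 3.41 CPM (edgeR adjusted p = 0.0312), a call lost without P6a, P30a or P30c (0.0744 to 0.09) and with library totals (0.055). The P6 libraries of Nhlrc1 formed the same pairs as those of Stbd1, with 6.06 and 3.36 CPM in P6a and P6b against 12.6 and 11.5 CPM in P6c and P6d. Epm2aip1, which encodes a laforin-binding protein, fell by 0.35 ± 0.11 on the log2 scale (edgeR adjusted p = 0.0254), a call lost without P6a (0.0618) or P30b (0.116). Rbck1, a ubiquitin ligase whose loss causes polyglucosan storage, had 79.0 ± 6.19 and 71.3 ± 1.56 CPM and did not pass (edgeR adjusted p = 0.188).

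Phosphoglucomutase interconverts glucose 1-phosphate and glucose 6-phosphate. The row named Pgm2 rose from 463 ± 12.2 to 585 ± 14.9 CPM (log2 fold change 0.34 ± 0.07, edgeR adjusted p = 0.00325; not called with library totals, edgeR adjusted p = 0.102), and the row named Pgm1 had 4.53 ± 1.94 and 4.18 ± 0.737 CPM. The symbols Pgm1 and Pgm2 were exchanged between annotation releases, and which enzyme each row counts is uncertain. Pgm5, a relative found at adhesion sites of muscle, rose from 22.6 ± 2.43 to 42.3 ± 4.11 CPM (edgeR adjusted p = 0.00021).

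Levels of different genes were compared per kilobase of the longest coding transcript in GENCODE. At P6 the order was Pygm (394 ± 50.9 CPM per kb), Pygb (273 ± 29.0), Ugp2 (133 ± 25.7), Gyg (103 ± 12.3), Gys1 (51.8 ± 4.37), Gbe1 (26.6 ± 1.14), Ppp1r3c (22.4 ± 3.54), Phka1 (11.98 ± 0.978) and Pygl (9.08 ± 1.15). Neighbours in this order overlapped between Ugp2 and Gyg and between Gbe1 and Ppp1r3c. At P30 the order began in the same way with Pygm (832 ± 0.643 CPM per kb), Pygb (451 ± 30.0), Ugp2 (128 ± 9.92) and Gyg (109 ± 6.77), followed by Ppp1r3c (88.0 ± 21.6), Gys1 (84.1 ± 3.61), Gbe1 (31.4 ± 2.68), Phka1 (16.3 ± 2.27) and Pygl (2.29 ± 0.165). Ppp1r3c overlapped both Gyg above it and Gys1 below it, so its place among them is not resolved. The phosphorylases lay above every other gene of the 9 at both ages, apart from Pygl, which was the lowest.

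**Figure D4:**
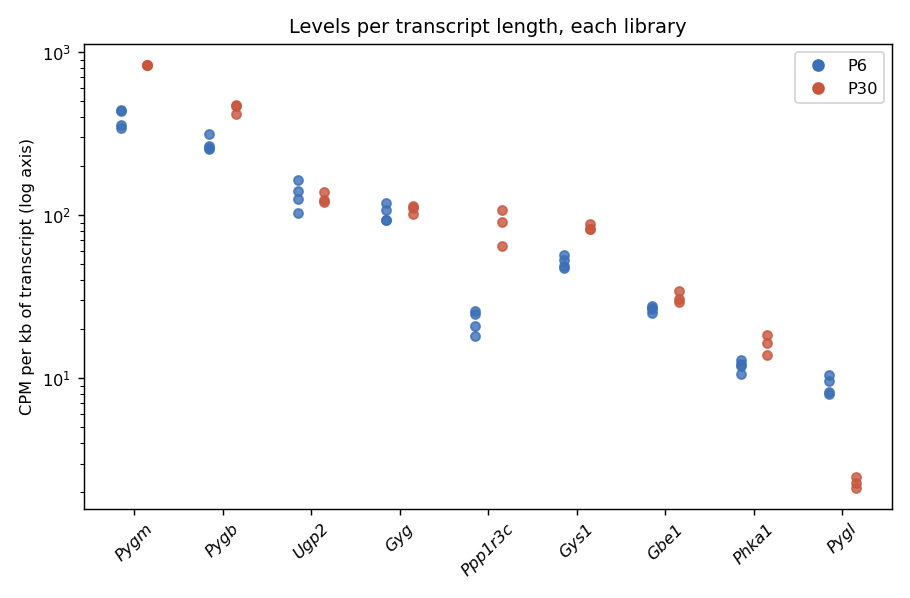
CPM per kilobase of transcript (log axis) of the 9 glycogen genes in each P6 (blue) and P30 (red) library, ordered by the P30 mean. Pygm reaches 832 CPM per kb at P30 and Pygl 2.29, and Ppp1r3c moves from the level of Gbe1 at P6 to that of Gys1 at P30.

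The genes whose log2(CPM + 1) over the 7 libraries was most like that of a given glycogen gene were found among all tested genes. The points share the libraries and the step between the ages, and the correlations are given as a description. For Pygm they were Intu, Kcnn1 and Ndrg2 (Pearson r = 0.9984 to 0.9986), for Ppp1r3c B3galnt2, Cmya5 and Ppm1k (0.9955 to 0.9963), and for Pygb Osbp, Fam131a and Tsc2 (0.9955 to 0.9985). Cmya5, a large muscle protein, went from 121 ± 15.3 to 582 ± 143 CPM. That it spreads widely at P30, as Ppp1r3c does, follows from its choice by correlation over these same libraries. For Pygl they were Armcx1, Mcm7 and Zfp618 (0.9976 to 0.9991), of which Mcm7, a subunit of the replicative helicase, fell from 41.1 ± 5.11 to 8.02 ± 0.572 CPM. For Gys1 the nearest were Hipk2, 2610507B11Rik and Alpk2 (0.9973 to 0.999).

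The direction of the 7 called genes was the same under each of 14 other settings, which were other tests, scalings and filters, removal of a transcript-length trend, and leaving out each library. The calls of Gys1, Pygb, Pygm, Pygl and Ppp1r3c were made in all 14, with edgeR, limma or DESeq2 adjusted p of at most 0.00234. Over these settings the log2 fold change ran from 1.80 to 2.15 for Ppp1r3c, 0.89 to 1.13 for Pygm, 0.54 to 0.80 for Pygb, 0.52 to 0.75 for Gys1 and -2.17 to -1.91 for Pygl.

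**Figure D5:**
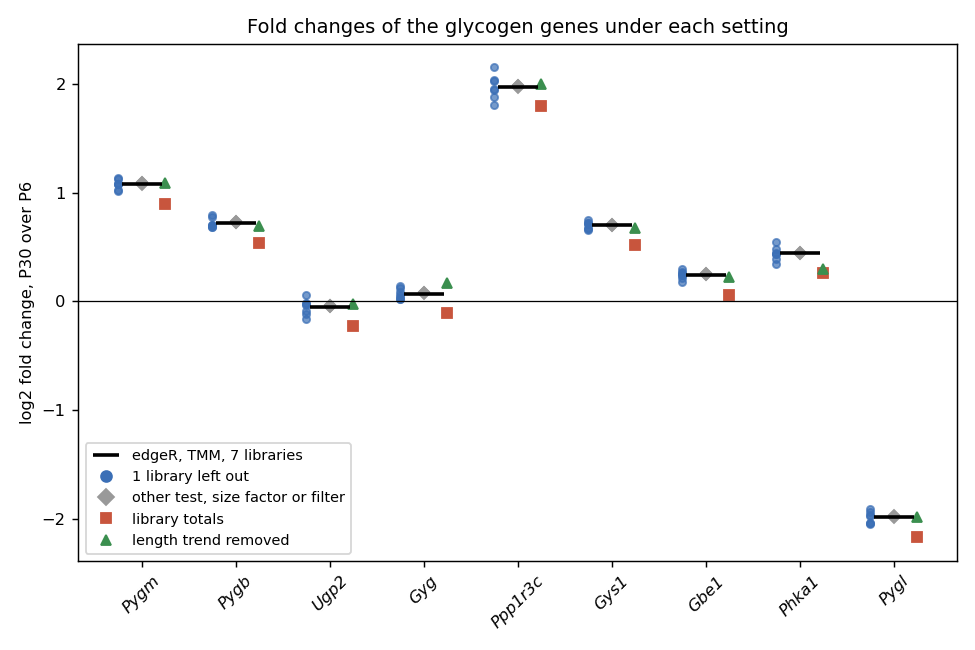
Log2 fold change (P30 over P6) of the 9 glycogen genes from the test on all 7 libraries (black bar), with 1 library left out (blue), with another test, size factor or filter (grey), with library totals (red squares) and with a transcript-length trend removed (green triangles). Library totals lie below the black bar for every gene, which brings Gbe1 to 0.06 and turns Gyg from 0.07 to -0.11, neither of them called there.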

How the data were processed

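For sorted cardiomyocytes the authors deposited raw counts by gene symbol in 1 table. Per the submitters' processing notes it was made with CASAVA 1.8, STAR 2.5.3a and featureCounts (Subread 1.5.2) on mm10. Its annotation, strand and multi-mapping settings are not stated in the labels. SMART-Seq v4 and Nextera XT kits made the libraries, per the labels' protocols. Each column took its group from the age it names, since their letters match no sample title. The authors' table of their own comparison was not used.

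Genes were filtered (filterByExpr), scaled (TMM) and tested for age with edgeR 4.0.16 (glmQLFit, glmQLFTest) in R 4.3.3, with Benjamini-Hochberg adjustment over 12561 genes; SE is the log2 fold change divided by the root of F. The fit was tested on simulated data. Alternatives used DESeq2 1.42.0, limma 3.58.1 (voom), other scalings and filters, a lowess length trend (99.0% of tested genes had a length) and fits without each library. GENCODE M21 (GRCm38) matched 22868 of 23337 symbols, 20953 of them directly. Named genes are the 9, with the called genes of the further list, the 3 most counted of that list that were not called, and others where a result touches them (Phkg2, Pgm1, Gys2, Ppp1r3e, Gsk3a, Gsk3b, Prkab1, Ppp1cc), chosen after their values were seen. One gene of the further list is not reported here and was left out of its counts. The 9 genes, the lists and the tests were chosen with earlier results of these data known. The lowest chi-square per gene between libraries of an age was 13.0, so no library repeated another.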

Additional observations from a re-analysis of the deposited data

Results flagged for a closer look

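Some libraries of the P6 group stood apart from the other 3 by Dixon's ratio, the gap to the nearest library over the range of the group. This was checked for 47 measures, of which 6 passed, and chance gives about 1 in 20. In P6b, Pygb had 1237 CPM against 998 to 1032 CPM in the other P6 libraries, Pgm5 had 26.2 CPM against 21.1 to 21.7, Gaa had 250.8 CPM against 185 to 195 and Prkag1 had 88.8 CPM against 102 to 104. In P6c, Gsk3a had 46.8 CPM against 34.9 to 36.2, and the share of Gys1 in Gys1 and Gys2 was 99.97% against 100% in the others. That last ratio is fixed by the counts, since Gys2 had 3 counts in P6c, the deepest library, and 0 in the other P6 libraries, so it says nothing about P6c and leaves 5 measures. The calls of Pygb, Pgm5, Gaa and Prkag1 were also made without P6b, and Gsk3a was called higher without P6c (log2 fold change 0.32, edgeR adjusted p = 0.0306).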

How the results depend on the processing

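Of the 9 genes, 4 to 6 were called higher and 1 lower under 14 alternatives, against 6 and 1, and of the further list 8 to 11 higher and 7 to 10 lower, against 11 and 8. With library totals the log2 fold change turned to -0.11 for Gyg, -0.11 for Prkaa2 and -0.076 for Prkab1, none of them called, while Ppp1cc (-0.33) and Rbck1 (-0.33) became lower. With the transcript-length trend removed Prkaa2 turned to -0.15. With 1 library left out, uncalled genes changed sign within these ranges: Ugp2 -0.16 to 0.056, Pgm1 -0.31 to 0.17, Phkg2 -0.20 to 0.016 and Prkaa2 -0.048 to 0.19. The cause was not tested. The 7 shares kept their direction per transcript length and with 1 library left out, where too few libraries remain for any p under 0.05. No paired analysis was possible because the count columns carry letters that the labels tie to no replicate number. Depth limits Gys2, with 0 to 4 counts per library, where 3 counts are 0.0553 to 0.271 CPM.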
